A study of Mus musculus with 2 samples.

Results

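Endothelial cells line the blood vessels of the mouse dorsal root ganglion, the cluster of sensory neuron cell bodies beside the spinal cord. They were taken here as cell barcodes that carried transcripts of Cldn5, the tight junction protein claudin-5, and Flt1, a receptor for vascular endothelial growth factor (VEGF). A barcode entered the class when it had at least 500 genes, under 20% mitochondrial UMIs (unique molecular identifiers, 1 per captured transcript), and at least 3 UMIs of Cldn5 and Flt1 together, making up at least 10 per 10000 of its UMIs. Its neuronal transcripts (Uchl1, Tubb3, Snap25 and Stmn2) had to stay under 25 per 10000 and the glial transcript Fabp7 under 40 per 10000. These limits kept 902 of the 20585 deposited barcodes, 339 in replicate 1 and 563 in replicate 2.

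Both 10x Genomics libraries came from lumbar L4-5 dorsal root ganglia of wild-type mice of 8 weeks, in the group treated with acetone, ether and water (AEW), a skin-drying model of itch. No untreated group was analysed here, so every comparison below is between classes of barcodes within these ganglia. The labels name the cell type as neuron and do not say whether the 2 libraries came from separate animals. The p-values therefore measure only how class differences varied between these 2 libraries, a variation that may be technical. That variation was estimated partly from other genes. The libraries held 113251556 UMIs in 8818 barcodes and 102347251 UMIs in 11767 barcodes, and 24 barcode sequences occurred in both, 1 of them inside the endothelial class.

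As background, vessels in peripheral nerve and ganglion differ in tightness. Endothelium of the nerve forms a blood-nerve barrier with claudin-5 junctions, glucose and amino acid carriers and drug efflux pumps, whereas ganglion vessels are known as more permeable, with Plvap, the protein of endothelial diaphragms, as a common marker of leaky segments. Along the vessel tree, arteries, capillaries and veins carry distinct sets of endothelial genes, and ETS family factors such as Erg and Fli1 bind many endothelial promoters.

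The promoters of 4 endothelial marker genes, the selecting pair Cldn5 and Flt1 and the markers Emcn and Ly6c1, are shown because ETS factors were among the transcription factors measured below. Each is the 250 bases before the gene's annotated start in the RefSeq promoter table (GRCm38.p6), written 5′ to 3′ along the gene. A form of the ETS site, AGGAAG, or its reverse complement CTTCCT is in capitals. Shorter or other forms of the site, such as GGAA alone, were not marked or counted.
Cldn5 (chr16:18776597-18776846, plus strand): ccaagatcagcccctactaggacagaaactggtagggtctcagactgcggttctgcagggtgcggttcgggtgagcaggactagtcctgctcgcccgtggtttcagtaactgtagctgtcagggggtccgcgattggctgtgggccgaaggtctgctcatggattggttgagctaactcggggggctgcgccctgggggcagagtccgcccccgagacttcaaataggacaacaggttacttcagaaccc
Flt1 (chr5:147726012-147726261, minus strand): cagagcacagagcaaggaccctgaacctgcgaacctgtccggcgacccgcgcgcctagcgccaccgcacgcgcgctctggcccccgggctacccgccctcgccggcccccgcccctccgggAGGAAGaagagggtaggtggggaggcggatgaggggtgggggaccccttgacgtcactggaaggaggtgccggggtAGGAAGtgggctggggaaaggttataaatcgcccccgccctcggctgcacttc
Emcn (chr3:137340828-137341077, plus strand): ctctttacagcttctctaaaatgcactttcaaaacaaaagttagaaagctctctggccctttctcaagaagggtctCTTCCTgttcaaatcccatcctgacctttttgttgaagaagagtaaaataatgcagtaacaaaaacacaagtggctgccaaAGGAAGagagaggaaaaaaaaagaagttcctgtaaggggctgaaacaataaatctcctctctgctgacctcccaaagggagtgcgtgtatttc
Ly6c1 (chr15:75048838-75049087, minus strand): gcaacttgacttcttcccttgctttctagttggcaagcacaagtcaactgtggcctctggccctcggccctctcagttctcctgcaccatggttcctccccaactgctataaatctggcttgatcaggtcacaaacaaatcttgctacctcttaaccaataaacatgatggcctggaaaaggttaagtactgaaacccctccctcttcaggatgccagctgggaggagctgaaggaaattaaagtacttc
The Flt1 and Emcn windows each held 2 matches to AGGAAG or CTTCCT, and the Cldn5 and Ly6c1 windows held 0, which does not exclude other forms of the site. The window of the marker Abcb1a is not shown because its listed start was not an annotated transcript start. Over all 27025 promoters of the table, 29.2% held at least 1 match on either strand. Among genes at least 4-fold higher in endothelial barcodes 31.8% held one (814 of 1109 genes had a promoter in the table), and among genes at least 4-fold lower 32.4% did. The letters were therefore about as frequent in promoters of higher genes as in those of lower genes, and a match is a description of the sequence, not a binding site.

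Both libraries held the class as a minority. Endothelial barcodes made up 4.07% of the 8329 kept barcodes in replicate 1 (Clopper-Pearson 95% interval 3.66 to 4.52%) and 4.99% of the 11290 in replicate 2 (4.59 to 5.40%). Of non-neuronal barcodes alone they were 7.64% of 4440 and 12.5% of 4510. Intervals and counts of this kind cover counting error only. The class was deep, with a median of 11250 UMIs and 3780 genes per endothelial barcode in replicate 1 and 8412 UMIs and 3130 genes in replicate 2, against medians of 6976 and 6172 UMIs in the other non-neuronal barcodes. A further 72 and 257 barcodes met every condition except the neuron limit, with medians of 3191.5 and 2983 UMIs, so the limit kept out shallow barcodes.

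The 2 selecting genes were at 2768 and 2277 CPM (UMIs per 1000000 of the summed total) for Cldn5 and 2796 and 2383 CPM for Flt1 in the summed endothelial UMIs of replicates 1 and 2. In the rest of the non-neuronal barcodes Cldn5 was at 6.41 and 23.5 CPM and Flt1 at 6.73 and 18.8 CPM. These values chose the members and are a description. CPM here are on library sizes scaled by the trimmed mean of M-values (TMM), unless they are called unscaled. Just inside the threshold, the 17 and 42 members under 20 per 10000 still had 2170 and 1958 unscaled CPM of Ly6c1, a surface protein of endothelium. Just outside it, candidates with at least 1 UMI of the pair had 52.2 and 143 CPM of Ly6c1.

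**Figure D1:**
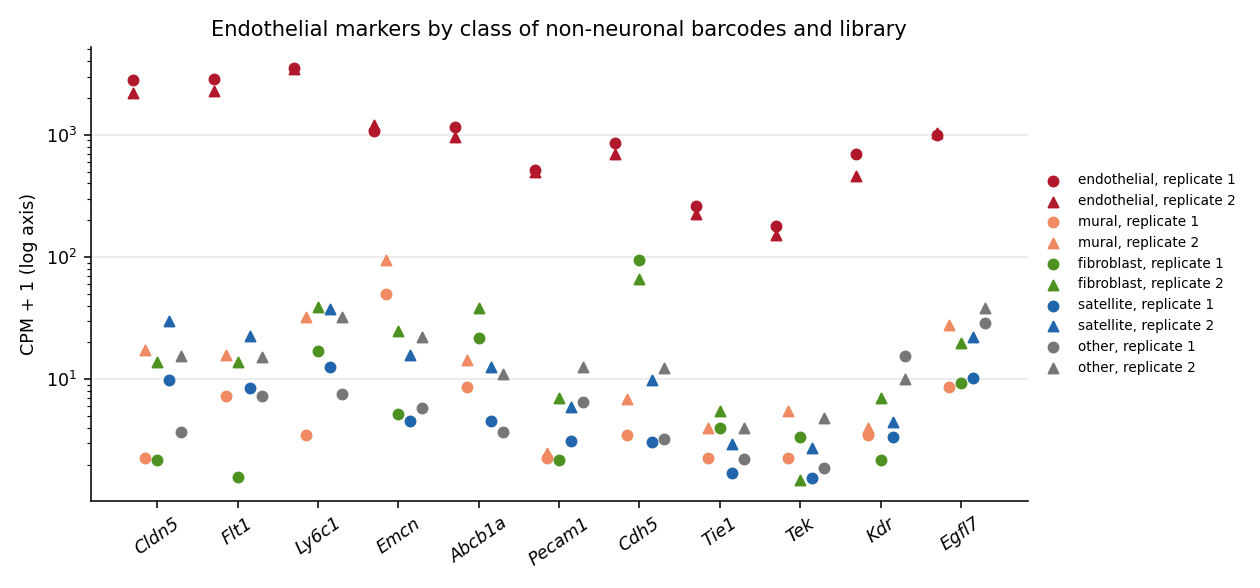
Levels of 11 endothelial markers by class of non-neuronal barcodes. The vertical axis is unscaled CPM plus 1 on a log scale, colours are classes, and circles and triangles are the 2 libraries, and Cldn5 and Flt1 chose the class. For every marker the 2 endothelial points lie above all 8 points of the other classes.

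The label of endothelial cells was checked against markers that did not choose the barcodes. Ly6c1 was at 3467 and 3552 CPM in endothelial barcodes, against 10.1 and 34.6 CPM in the rest. Emcn, the sialomucin endomucin, was at 1047 and 1239 CPM in endothelial barcodes and at 5.07 and 18.7 CPM in the rest. Abcb1a, the efflux pump P-glycoprotein, reached 1129 and 995 CPM in endothelial barcodes, against 4.31 and 13.0 CPM in the rest. For all 3 genes both endothelial values were above both values of the rest. The share of all genes separated in this way was not counted. For comparison, 7.58% of all genes tested were called and at least 4-fold higher. After thinning every barcode to 2000 UMIs, Ly6c1 was detected in 96.7% and 96.2% of endothelial barcodes (99.4% and 98.6% unthinned) and in 0.74% and 3.28% of satellite glia barcodes (3.28% and 9.12% unthinned), which should lack it. The thinned share for Emcn was 82.8% and 87.6% in endothelial barcodes and 0.277% and 1.48% in satellite glia (97.3%, 98.4%, 1.06% and 4.54% unthinned). In mural barcodes Emcn was detected in 9.35% and 14.7% after thinning. The medians before thinning were 8432 and 7445 UMIs in satellite glia and 5017 and 4403.5 UMIs in mural barcodes.

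Summed markers of other cells in the ganglion were present but lower than in the rest, and single markers could differ. The 6 satellite glia markers summed to 3674 and 3535 unscaled CPM in endothelial barcodes, against 78627 and 80749 in the rest, and to 4969 and 7761 in fibroblast barcodes. Glul was the only one of them above the rest, at 1546 and 1129 unscaled CPM in endothelial barcodes, against 268 and 329 CPM in the rest. Of the mural markers, Rgs5, Kcnj8, Abcc9 and Des were above the rest in replicate 1 and below it in replicate 2. The 5 erythroid markers summed to 10077 and 3477 CPM in endothelial barcodes and 18995 and 17747 in the rest, and the 10 mural markers to 446 and 153 CPM in endothelial barcodes and 1066 and 940 in the rest. Macrophage markers (8 genes) summed to 101 and 107 CPM in endothelial barcodes, against 901 and 1086 CPM in the rest. The 6 lymphatic endothelial markers measured summed to 52.0 and 53.8 CPM in endothelial barcodes and 173 and 154 CPM in the rest, but did not move together. Pdpn was at 0.942 and 5.74 unscaled CPM in endothelial barcodes, against 112 and 134 CPM in the rest, and Reln at 6.36 and 1.58 against 58.1 and 17.6 CPM. Flt4, most of the endothelial sum, was at 42.9 and 34.8 unscaled CPM, against 0.128 and 0.422 CPM in the rest. Mmrn1 was close to absent in both classes, at 0.707 and 0.198 against 0.0320 and 0.115 CPM, too few UMIs to order them. Lyve1 was at 0 and 0.198 unscaled CPM in endothelial barcodes, against 2.05 and 1.34 CPM in the rest. Prox1, a lymphatic transcription factor, was at 1.18 and 11.3 unscaled CPM in endothelial barcodes, against 0.224 and 0.384 CPM in the rest, and so was above the rest in both libraries. The T cell genes Cd3e, Cd3d and Cd3g were at 0 in both libraries of endothelial barcodes. The part of these transcripts in the results was not tested, apart from the doublet and overlap alternatives given at the end.

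Against all other non-neuronal barcodes, endothelial barcodes were set apart by a broad vascular programme. The comparison tested 14627 genes with edgeR's quasi-likelihood test on UMI sums per class and library, with library as a block, and called 55.2% of them at an adjusted p under 0.05 (27.4% higher, 27.8% lower). At that rate a call by itself says little about a gene, so fold sizes are given, and 7.58% of genes were called and at least 4-fold higher and 12.4% at least 4-fold lower. The fit had 1 residual degree of freedom among samples. These p-values set a class difference against how such differences varied between the libraries. Since the barcodes were picked by values measured in the same cells, they say nothing of whether the class is real.

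The 14 genes with the largest folds up had log2 fold changes between 7.28 and 7.60. Nr5a2, an orphan nuclear receptor on chromosome 1, was at 168 and 75.5 CPM in endothelial barcodes and 0.351 and 0.870 CPM in the rest (log2 fold change 7.60 ± 0.43 SE, adjusted p = 4.7e-06). Its level differed between the libraries by over 2-fold, yet both stood far above the rest. Gpihbp1 (chromosome 15: 75596628 to 75599481, plus strand), which holds lipoprotein lipase on capillary endothelium, was at 255 and 331 CPM in endothelial barcodes and 0.830 and 2.50 CPM in the rest (log2 7.56 ± 0.29, adjusted p = 1.2e-06). Car4, a membrane carbonic anhydrase, was at 226 and 270 CPM in endothelial barcodes, against 0.638 and 2.16 CPM in the rest (log2 7.57 ± 0.33). Both are known from capillaries. Sox17 (chromosome 1: 4490931 to 4497354, minus strand), a transcription factor of arterial endothelium, was at 505 and 413 CPM in endothelial barcodes and 1.47 and 4.84 CPM in the rest (log2 7.31 ± 0.46). Ces2e, a carboxylesterase, 1810006J02Rik, Clic5, Robo4, Slco1a4, Prom1, Adgrl4, Mecom and Cyyr1 completed the set together with Ly6c1.

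The 8 genes with the largest folds down included genes known from glia. Aqp4, the glial water channel, was at 0.232 and 1.23 CPM in endothelial barcodes and 45.6 and 52.1 CPM in the rest (log2 -6.01 ± 0.33, adjusted p = 4.1e-06). Acsbg1, an acyl-CoA synthetase, was at 4.40 and 7.57 CPM in endothelial barcodes, against 246 and 310 CPM in the rest (log2 -5.54 ± 0.19). Adamts17, a metalloproteinase, had only 3 UMIs in all endothelial barcodes, 71.0-fold below the rest with a counting interval of 24.2 to 345-fold. Hes5, 2900052N01Rik, Crabp1 and Cnmd were also among them, with log2 fold changes between -5.57 and -5.80.

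Receptors for vessel growth factors were the list with the highest median. All 10 of the 10 listed VEGF, TIE and related receptors reached 10 CPM and were higher, 9 of them at least 4-fold, with a median log2 fold change of 6.56 against -0.05 over all genes tested. Kdr, the main signalling receptor for VEGF, was at 686 and 477 CPM in endothelial barcodes and 5.81 and 4.84 CPM in the rest (log2 6.75 ± 0.18). Tie1 was at 257 and 231 CPM in endothelial barcodes, against 0.989 and 2.38 CPM in the rest, and Tek, the angiopoietin receptor, at 175 and 155 against 0.766 and 2.16 CPM. Growth factors themselves were split, with 6 of 10 higher and 4 lower. Egfl7, secreted by endothelium, was at 979 and 1076 CPM in endothelial barcodes and 14.4 and 24.5 CPM in the rest, whereas Angpt2 was at 4.63 and 6.55 CPM in endothelial barcodes and 75.2 and 75.3 CPM in the rest (log2 -3.74 ± 0.19), and Vegfa at 16.4 and 22.7 against 61.0 and 84.2 CPM. A gene could enter these counts through its endothelial level alone, so the counts describe the lists and do not stand as support for them.

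**Figure D2:**
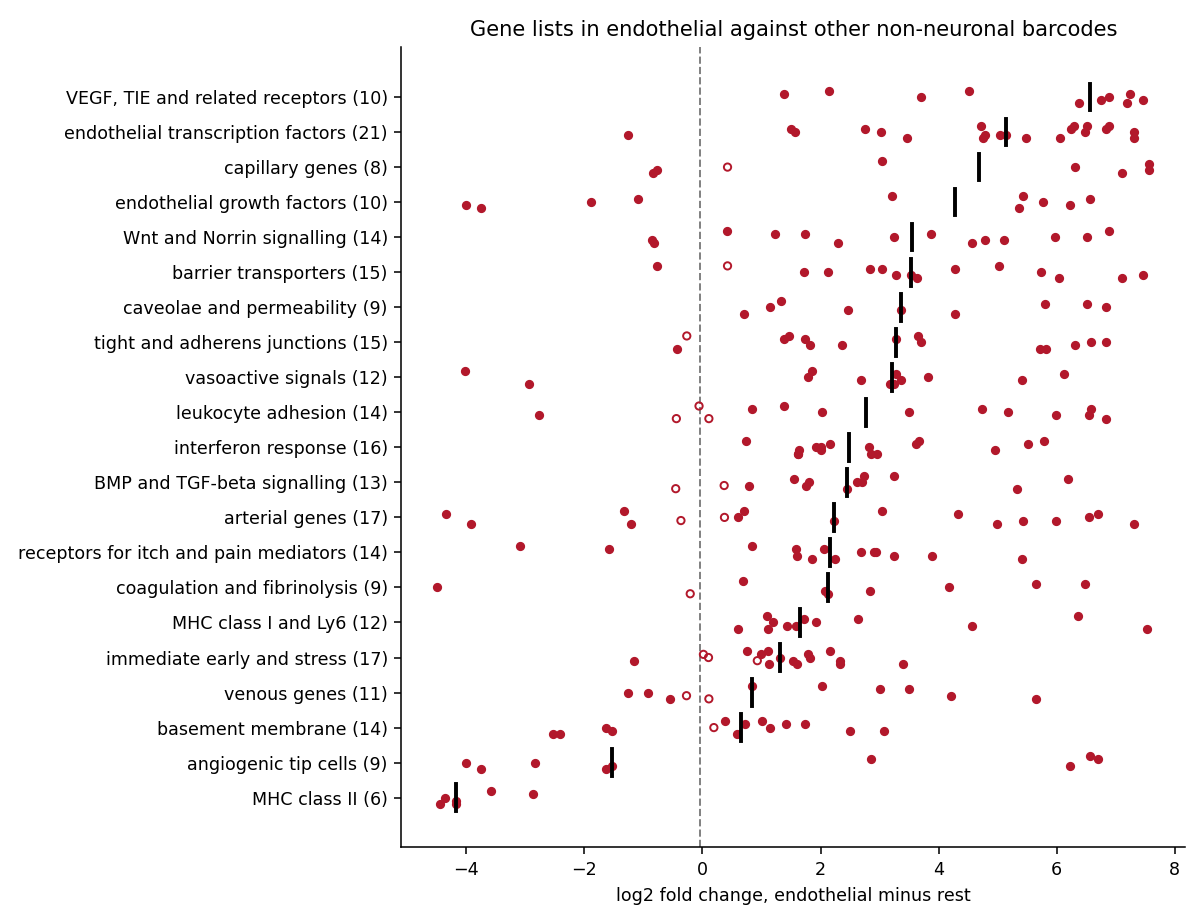
Log2 fold changes of list members between endothelial and other non-neuronal barcodes. Each point is a gene at 10 CPM or more in both libraries of either class, filled where the adjusted p was under 0.05; black bars are list medians, the dashed line is the median of all genes tested (-0.05), and numbers in parentheses count the genes. VEGF and TIE receptors have the highest median (6.56) and MHC class II genes the lowest (-4.17).

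Barrier genes were high. Of 15 junction genes at 10 CPM, 13 were higher and 1 lower (median log2 3.28), and of 15 barrier transporters 13 were higher and 1 lower (median 3.52). Cdh5, VE-cadherin, was at 843 and 724 CPM in endothelial barcodes and 7.02 and 13.5 CPM in the rest (log2 6.31 ± 0.31, adjusted p = 2.5e-06). Tjp1, the junction scaffold ZO-1, was at 604 and 424 CPM in endothelial barcodes, against 64.0 and 42.7 CPM in the rest. Junction proteins were not all raised: Jam3 was at 129 and 166 CPM in endothelial barcodes and 175 and 176 CPM in the rest (adjusted p = 0.15), and Cd99l2 was the member called lower. Slco1a4 (chromosome 6: 141805440 to 141856199, minus strand), an organic anion carrier of barrier endothelium, was at 669.6 and 733 CPM in endothelial barcodes and 2.62 and 5.87 CPM in the rest (log2 7.45 ± 0.29). Abcg2, an efflux pump, was at 1116 and 1302 CPM in endothelial barcodes, against 17.7 and 29.0 CPM in the rest. Slc2a1 (chromosome 4: 119108711 to 119137983, plus strand), the glucose transporter GLUT1, was at 396 and 397 CPM in endothelial barcodes and 32.4 and 51.1 CPM in the rest (log2 3.28 ± 0.19). Mfsd2a, a lipid carrier that satellite glia also had (94.2 and 136 unscaled CPM), was at 751 and 585 CPM in endothelial barcodes and 68.9 and 94.8 CPM in the rest.

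Permeability genes were high in the same summed class. All 9 caveolae and permeability genes were higher (median log2 3.37). Plvap (chromosome 8: 71497765 to 71511752, minus strand) was at 482 and 442 CPM in endothelial barcodes and 2.55 and 9.01 CPM in the rest (log2 6.51 ± 0.45, adjusted p = 1.3e-05). Per barcode it was uneven, with a median of 2.69 and 2.31 per 10000 UMIs, a lower quartile of 0 in both libraries and a 95th percentile of 14.2 and 15.1 per 10000. Ly6c1, by contrast, ran between 13.4 and 67.3 per 10000 from the 5th to the 95th percentile in replicate 1 and between 8.41 and 63.3 in replicate 2. Cav1, the caveolar coat protein, was at 1085 and 752 CPM in endothelial barcodes, against 56.4 and 38.6 CPM in the rest.

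Transcription factors of endothelium were higher in 20 of 21 cases, 18 of them at least 4-fold, with a median log2 fold change of 5.14. Erg was at 95.4 and 118 CPM in endothelial barcodes and 1.44 and 1.32 CPM in the rest (log2 6.25 ± 0.18), and Fli1 at 274 and 212 against 6.25 and 7.53 CPM. Lef1, a Wnt effector, was at 207 and 180 CPM in endothelial barcodes, against 1.34 and 3.03 CPM in the rest (log2 6.52 ± 0.31). The exception was the venous factor Nr2f2, at 87.5 and 118 CPM in endothelial barcodes and 230 and 259 CPM in the rest (log2 -1.26 ± 0.14), a gene that other ganglion cells also expressed. Of 14 Wnt and Norrin signalling genes 12 were higher, among them the Wnt targets Apcdd1 (370 and 204 CPM in endothelial barcodes, 8.74 and 7.38 CPM in the rest) and Axin2 (149 and 59.7 against 10.4 and 9.92 CPM). Of 13 genes of BMP and TGF-beta signalling 11 were higher and none was lower. Eng, the co-receptor endoglin, was at 604 and 488 CPM in endothelial barcodes and 5.01 and 10.7 CPM in the rest.

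Signals that act on vessel tone and clotting were largely raised against the rest, but less so against fibroblasts. Edn1, endothelin-1, was at 119 and 84.3 CPM in endothelial barcodes and 0.255 and 3.03 CPM in the rest (log2 6.12 ± 0.66, adjusted p = 0.00015), while its receptor Ednrb was low at 50.7 and 51.0 CPM in endothelial barcodes, against 835 and 824 CPM in the rest. Nos3, the endothelial nitric oxide synthase, was at 37.5 and 49.1 CPM in endothelial barcodes and 4.28 and 4.05 CPM in the rest. Of 12 vasoactive genes 10 were higher and 2 lower, and of 9 coagulation genes 7 were higher and 1 lower. Thbd, the anticoagulant receptor thrombomodulin, was at 292 and 373 CPM in endothelial barcodes, against 16.2 and 20.7 CPM in the rest (log2 4.17 ± 0.14), and F3, tissue factor, which starts clotting, at 2.08 and 6.34 against 78.2 and 109.8 CPM. The member called lower was thus the procoagulant F3. Against mural barcodes, described below, 10 of 12 vasoactive genes were higher and 2 lower, and 5 of 9 coagulation genes were higher and 2 lower. Against fibroblasts, also described below, 7 of 14 vasoactive genes were higher and 3 lower (median log2 0.95). Of 10 coagulation genes 4 were higher and 3 lower there (median 0.46).

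Among receptors for itch and pain mediators, 14 of 28 listed genes reached 10 CPM, with 12 higher and 2 lower than in the rest (median log2 2.15). The closest classes, described below, differed less. Against mural barcodes 10 of 16 were higher, 2 were lower and 4 did not pass (median 0.94). Against fibroblasts 9 of 17 were higher, 5 were lower and 3 did not pass (median 0.74). Calcrl, the receptor chain for CGRP and adrenomedullin, was at 295 and 180.3 CPM in endothelial barcodes and 5.23 and 5.64 CPM in the rest (log2 5.41 ± 0.23). Its partner Ramp2, which gives adrenomedullin binding, was at 565 and 684 CPM in endothelial barcodes and 152 and 196 CPM in the rest, while Ramp1, the partner for CGRP, was at 3.24 and 0.614 CPM in endothelial barcodes, against 14.04 and 17.7 CPM in the rest (log2 -3.09 ± 0.46). Lifr was at 776 and 579 CPM in endothelial barcodes and 139 and 143 CPM in the rest, and Osmr, the oncostatin M receptor, at 64.1 and 129 against 6.41 and 21.8 CPM. Il31ra, a receptor chain for an itch cytokine, was at 0.232 and 1.23 CPM in endothelial barcodes and 0.383 and 0.908 CPM in the rest (adjusted p = 0.87). The histamine receptors Hrh1 and Hrh2, the bradykinin receptor Bdkrb1, the protease receptor F2rl1 and the substance P receptor Tacr1 were under the filter on low counts.

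Immune genes divided sharply by class. All 12 MHC class I and Ly6 genes at 10 CPM were higher (median log2 1.65), and all 6 MHC class II genes were lower (median -4.17). Against mural barcodes, described below, all 12 class I and Ly6 genes were higher, but none of the 3 class II genes at 10 CPM was called. Against fibroblasts all 12 were higher and 3 of 4 class II genes were lower. H2-K1, a classical class I chain, was at 1358 and 1668 CPM in endothelial barcodes and 387 and 412 CPM in the rest (log2 1.91 ± 0.15). Cd74, the class II invariant chain, was at 22.5 and 31.5 CPM in endothelial barcodes, against 387 and 594 CPM in the rest (log2 -4.17 ± 0.15). The macrophage markers that sit beside class II genes in the rest were at 901 and 1086 CPM there, as given above.

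All 16 interferon response genes were higher in endothelial barcodes, with a median log2 fold change of 2.49. Iigp1, an interferon-inducible GTPase, was at 1121 and 2803 CPM in endothelial barcodes and 18.5 and 56.2 CPM in the rest (log2 5.78 ± 0.18, adjusted p = 1.2e-06). Rsad2, viperin, was at 963 and 1209 CPM in endothelial barcodes, against 26.3 and 21.2 CPM in the rest. Irf7, a master regulator of type I interferon, was at 408 and 454 CPM in endothelial barcodes and 15.1 and 12.8 CPM in the rest (log2 4.95 ± 0.17). Immediate early and stress genes were higher in 13 of 17 cases by smaller folds (median 1.31). Most of this did not hold against the closest classes, which are described below. Against mural barcodes 4 of 17 were higher and 12 did not pass (median 0.42), and against fibroblasts 5 were higher and 11 did not pass (median 0.40). Fos was at 4138 and 5811 CPM in endothelial barcodes and 1418 and 3631 CPM in the rest (log2 1.11 ± 0.23). Jun was at 2927 and 1935 CPM in endothelial barcodes, against 832 and 1877 CPM in the rest (adjusted p = 0.067).

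Adhesion molecules for leukocytes were higher in 10 of 14 cases. Pecam1 was at 503 and 514 CPM in endothelial barcodes and 3.03 and 6.36 CPM in the rest (log2 6.83 ± 0.28). Cxcl12, a chemokine of arteries and stroma, was at 3021 and 1340.3 CPM in endothelial barcodes, against 13.6 and 33.1 CPM in the rest (log2 6.55 ± 0.60). Chemokines did not move together, since Ccl2 was at 9.96 and 38.5 CPM in endothelial barcodes and 43.9 and 342 CPM in the rest (log2 -2.76 ± 0.24). Cxcl1 was at 55.8 and 82.7 against 25.5 and 183 CPM (adjusted p = 0.92). Ackr1, a venule chemokine receptor, was at 14.6 and 19.8 CPM in endothelial barcodes and 22.9 and 11.1 CPM in the rest, with a thinned detection of 4.73% and 5.41% of endothelial barcodes and 3.01% and 2.38% of satellite glia (17.2%, 11.2%, 11.3% and 7.005% unthinned).

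The remaining lists described vessel type and matrix. Of 17 arterial genes at 10 CPM, 11 were higher and 4 lower, of 11 venous genes 6 were higher and 3 lower, and of 8 capillary genes 5 were higher and 2 lower. Basement membrane genes had 9 of 14 higher and 4 lower (median log2 0.65). Lama5 was at 59.5 and 56.9 CPM in endothelial barcodes and 7.56 and 6.24 CPM in the rest (log2 3.08 ± 0.15), whereas Nid1 was at 41.2 and 35.4 CPM in endothelial barcodes, against 242 and 200.5 CPM in the rest (log2 -2.53 ± 0.13). Angiogenic tip cell genes were divided, with 4 of 9 higher and 5 lower.

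Mural cells, the pericytes and smooth muscle of the vessel wall, were taken as 282 non-neuronal barcodes with Rgs5 and Pdgfrb. This comparison called 30.9% of 14071 genes (16.3% higher and 14.6% lower in endothelial barcodes) in a fit of 5 classes. Lef1 was at 208 and 181 CPM in endothelial barcodes and had 0 UMIs in both mural sums, so it was at least 93.1-fold higher (floor of 3 counts over the class). Slc39a8, a metal ion carrier, was at 200.3 and 189 CPM in endothelial barcodes and also had 0 mural UMIs, at least 93.2-fold higher. Slc16a4, Gimap1, Mecom, Nr5a2, She and Edn1 followed, each with 0 mural UMIs and bounds of at least 48.8-fold or more. In the other direction, Acta2, smooth muscle actin, was at 19.1 and 21.5 CPM in endothelial barcodes, against 5462 and 4109 CPM in mural barcodes (log2 -7.90 ± 0.33, adjusted p = 1.1e-06). Gpr20, Susd5, Sfrp2, Casq2, Cnn1, Ccl19 and Myh11 were the other genes with the largest folds down, all at under 8 CPM in endothelial barcodes. Ccl19 is listed under several identifiers, so its reads may be shared between copies. Some genes thought of as endothelial were higher in mural barcodes: Cavin1, a caveolar coat protein, was at 156 and 176 CPM in endothelial barcodes and 787 and 580.3 CPM in mural barcodes (log2 -2.04 ± 0.22), and Procr, the protein C receptor, at 48.5 and 60.5 against 182 and 441 CPM (log2 -2.36 ± 0.36). Interferon response genes were higher in endothelial barcodes here as well, in 15 of 16 cases.

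Fibroblasts were 589 barcodes that met the same limits as mural cells with Dcn and Lum together in place of Rgs5 and Pdgfrb. A barcode that met both rules went to the class with more UMIs of its pair. Fibroblasts differed from endothelial barcodes in 39.7% of 14071 genes (20.6% higher and 19.1% lower in endothelial barcodes). Aplnr, the apelin receptor, was at 117 and 51.2 CPM in endothelial barcodes with 0 UMIs in fibroblasts, at least 99.4-fold higher. Zfp366, Bcl6b, Tal1, St8sia6, Has3, Syt15 and Stap2 also had 0 fibroblast UMIs, with bounds of at least 41.3-fold or more. Angptl7, a secreted angiopoietin-like protein, had 0 UMIs in endothelial barcodes and 148 and 140 CPM in fibroblasts, at least 450-fold lower in endothelial barcodes. Fmod, Ttr, Tnmd, Gjb6, 9130410C08Rik, Mfap4 and Clec3b were the others. Basement membrane genes were lower in endothelial than in fibroblast barcodes in 7 of 14 cases and higher in 3. Col15a1 was at 17.3 and 15.9 CPM in endothelial barcodes and 918 and 661 CPM in fibroblasts (log2 -5.55 ± 0.30). Cdh5 was at 849 and 731 CPM in endothelial barcodes and still at 92.8 and 63.8 CPM in fibroblasts (log2 3.34 ± 0.56). Its thinned detection was 76.0% and 73.7% in endothelial barcodes and 13.2% and 8.65% in fibroblasts (97.9%, 94.4%, 33.0% and 19.0% unthinned).

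Members were then split along the vessel tree. The arterial gate took 118 and 142 endothelial barcodes with at least 2 UMIs of Gja4, Gja5, Sema3g, Hey1 and Bmx and more of these than of Vwf, Nr2f2, Vcam1, Selp and Ackr1. The venous gate took 130 and 239 barcodes by the opposite rule, and 91 and 182 barcodes fell in neither. The median depth was 12259.5 and 9315 UMIs in arterial and 13875 and 9417 UMIs in venous barcodes, and 7331 and 6250 UMIs in those of neither gate, which needed fewer UMIs. As a description of the gates, Gja4, a connexin, was at 188 and 135 CPM in arterial and 14.03 and 7.04 CPM in venous barcodes, and Vwf, von Willebrand factor, at 50.9 and 48.1 CPM in arterial and 226 and 347 CPM in venous barcodes. The gates overlapped in their raw markers, since 27.7% and 17.1% of all members had at least 2 UMIs of both sets.

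Arterial barcodes carried more of the glucose and thyroid hormone carriers and of endothelin, and venous barcodes more Plvap and capillary genes. The comparison called 7.02% of 10171 genes (3.22% higher and 3.8% lower in arterial). That count rests on the library block: without it 19 genes were called. DESeq2 with the block called 183.

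Alpl, alkaline phosphatase, had the largest fold up, at 61.9 and 66.5 CPM in arterial and 0 and 2.64 CPM in venous barcodes (log2 5.44 ± 0.42, adjusted p = 1.3e-06). Dkk2, a secreted Wnt modulator, was at 56.4 and 31.1 CPM in arterial and 1.04 and 2.64 CPM in venous barcodes (log2 4.42 ± 0.39). Nebl, an actin-binding protein, was at 101 and 95.5 CPM in arterial barcodes, against 5.72 and 5.28 CPM in venous ones (log2 4.15 ± 0.24). These genes were close to absent from venous barcodes in both libraries. Atp2a3, St8sia6, Wfdc1, Alox5ap and Ptprr completed the 8 genes.

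Barrier transporters were higher in 7 of 16 cases and lower in none. Slc2a1 was at 715 and 806 CPM in arterial and 198 and 144 CPM in venous barcodes (log2 2.15 ± 0.19, adjusted p = 3.8e-06). Slco1c1, a thyroid hormone carrier, was at 47.2 and 58.0 CPM in arterial and 8.83 and 7.92 CPM in venous barcodes (log2 2.65 ± 0.23). Slc6a6, the taurine carrier, was at 890.5 and 1119 CPM in arterial barcodes, against 326 and 548 CPM in venous ones. The list did not move as a whole, because Abcg2 was at 1031 and 1187 CPM in arterial and 1121 and 1251 CPM in venous barcodes (log2 -0.10 ± 0.08, adjusted p = 0.64). Slco1a4 was at 727 and 788 against 606 and 669.5 CPM (adjusted p = 0.13). Cldn5, which helped choose the members, was at 3703 and 2987 CPM in arterial and 2227 and 1706 CPM in venous barcodes.

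Other genes higher in arterial barcodes came from signalling and matrix lists. Edn1 was at 228 and 203 CPM in arterial and 51.4 and 25.5 CPM in venous barcodes (log2 2.52 ± 0.16, adjusted p = 3.1e-07). Col18a1, a basement membrane collagen, was at 383 and 291 CPM in arterial barcodes, against 63.9 and 44.9 CPM in venous ones (log2 2.64 ± 0.14). Vegfc was at 73.5 and 66.5 CPM in arterial and 7.28 and 13.6 CPM in venous barcodes, and Bmp6 at 41.1 and 31.1 against 3.12 and 7.92 CPM. Of 20 endothelial transcription factors 8 were higher, led by Foxq1 (63.7 and 69.3 CPM in arterial, 16.6 and 15.4 CPM in venous barcodes), and 1, Sox7, was lower. Arterial genes outside the gate were higher in 9 of 12 cases, and Cxcl12 was at 4094 and 1844 CPM in arterial and 2153 and 826 CPM in venous barcodes.

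**Figure D3:**
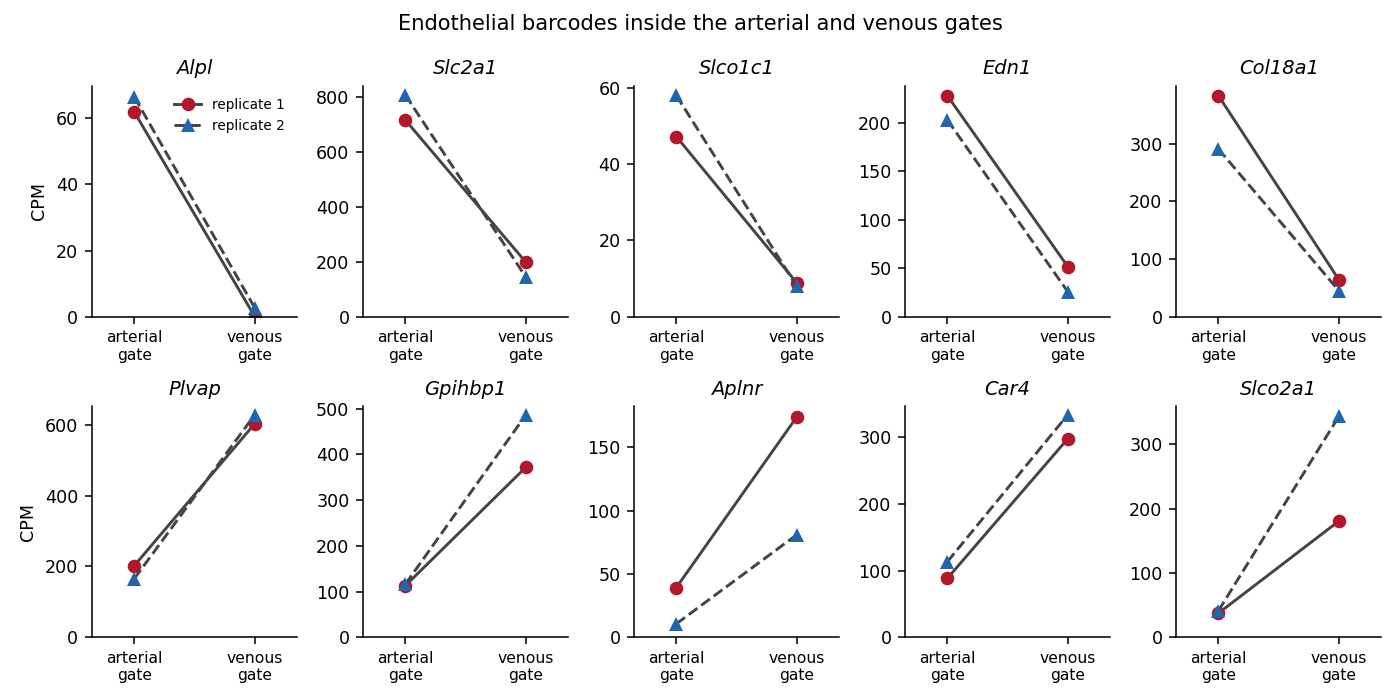
Levels of 10 genes in endothelial barcodes of the arterial and venous gates. Vertical axes are CPM starting at 0, each with its own range, and lines join the 2 gates within a library. The 5 genes of the top row were higher in arterial barcodes in both libraries, and the 5 of the bottom row lower; Slc2a1 was at 715 and 806 CPM in arterial and 198 and 144 CPM in venous barcodes.

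Genes lower in arterial barcodes included Plvap and genes of the capillary list. Plvap was at 202 and 165 CPM in arterial and 604 and 629 CPM in venous barcodes (log2 -1.77 ± 0.17, adjusted p = 6.9e-06). Gpihbp1 was at 113 and 116 CPM in arterial and 372 and 486 CPM in venous barcodes (log2 -1.90 ± 0.11, adjusted p = 1.2e-07), and Car4 at 88.2 and 113 against 298 and 334 CPM. Capillary genes were lower in 5 of 8 cases and higher in 1, Mfsd2a. The venous gate thus held capillary as well as venous transcripts. Adgrg6, an adhesion receptor, was at 3.68 and 2.83 CPM in arterial and 32.7 and 47.5 CPM in venous barcodes (log2 -3.57 ± 0.34). Slco2a1, the prostaglandin carrier, was at 37.4 and 41.0 CPM in arterial barcodes, against 181 and 344 CPM in venous ones, and the synthases Ptgs1 and Ptgis were also lower (log2 -2.35 and -2.09). Flrt2, Chp2, Aebp1, Aplnr and Bgn were the others of the 8. Sele, E-selectin, had 3 UMIs in arterial and 117 in venous barcodes, 27.4-fold lower with a counting interval of 9.13 to 135-fold.

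Immune, stress and junction lists had a minority of their members called, against 7.02% of all genes tested. The interferon count below was near that share, and the junction count was above it. Of 16 interferon genes 1 was called, Ifitm2, and Iigp1 was at 829 and 2682 CPM in arterial and 1278 and 2767 CPM in venous barcodes (adjusted p = 0.13). Of 12 MHC class I and Ly6 genes 2 were higher, and of 17 immediate early and stress genes 2 were lower. Junction genes were called in 5 of 16 cases, 3 higher and 2 lower, with Cdh5 at 886 and 789.9 CPM in arterial and 837 and 722 CPM in venous barcodes (adjusted p = 0.64). Mural markers summed to 380 and 211 unscaled CPM in arterial and 642 and 137 CPM in venous barcodes, and erythroid markers to 7379 and 3857 against 9006 and 3863 CPM. The order of the gates by mural markers turned round between the libraries, and by erythroid markers the arterial sum was the lower one in both. The 6 fibroblast markers summed to 86.7 and 232 in arterial and 295 and 390.3 CPM in venous barcodes, with Dcn at 10.997 and 152 against 163 and 204 unscaled CPM. The 6 satellite glia markers summed to 3496 and 3463 CPM in arterial and 3808 and 3529.8 CPM in venous barcodes, with Apoe at 820.3 and 1239 against 2447 and 2327 unscaled CPM. Fibroblast sums were thus lower in arterial barcodes in both libraries. The satellite glia sums were lower there only through Apoe, and the remaining satellite glia markers together were higher in arterial barcodes in both libraries. The 4 neutrophil markers were also higher in arterial barcodes, at 165 and 39.8 against 15.8 and 36.3 CPM. Adgrg6, Aebp1 and Bgn, among the 8 genes with the largest folds down, were also lower in all endothelial barcodes than in the rest (Adgrg6 17.9 and 23.7 against 125 and 114 unscaled CPM, Aebp1 20.02 and 24.5 against 61.7 and 50.7, Bgn 27.3 and 33.4 against 152 and 181). The same held for Alpl, Wfdc1 and Alox5ap among the 8 genes with the largest folds up. Alpl was at 24.0 and 21.6 unscaled CPM in all endothelial barcodes, against 47.4 and 60.6 CPM in the rest. Wfdc1 was at 10.8 and 9.69 against 21.4 and 27.7 CPM, and Alox5ap at 14.1 and 10.7 against 26.5 and 28.6 CPM. The others of the 8 up were above the rest in both libraries. The part of other cells' transcripts in the differences between gates was not tested.

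Members were also split by Plvap. Among barcodes of at least 2000 UMIs, 207 and 306 had 2 or more Plvap UMIs, 27 and 78 had 1, and 104 and 171 had 0. Barcodes with Plvap were deeper, with medians of 13308 and 9166.5 UMIs, against 8352 and 7164 UMIs in those with 0. The part of that depth gap in the differences below was not tested. The Plvap class and the vessel gates are splits of the same barcodes and are not independent. Of arterial barcodes 41.5% and 24.1% had 2 or more Plvap UMIs, against 80% and 78.6% of venous ones.

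In barcodes with Plvap, 6 of 11 venous and 6 of 9 capillary genes were higher, and 10 of 16 arterial genes and 5 of 16 barrier transporters were lower. The comparison called 4.03% of 9550 genes (1.98% higher and 2.05% lower with Plvap). Without the library block it called 0, with 449 genes at an unadjusted p under 0.05, and DESeq2 with the block called 104.

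Aplnr was at 158 and 72.2 CPM in Plvap barcodes and 10.3 and 8.999 CPM in those without (log2 3.49 ± 0.28, adjusted p = 5.9e-07). Col13a1, a membrane collagen, was at 152 and 146 CPM in Plvap barcodes, against 21.5 and 36.0 CPM without (log2 2.33 ± 0.18). Slco2a1, Lrg1, Adgrg6, Emid1 and Aebp1 were also among the 8 genes with the largest folds up at 20 CPM or more in both libraries. Venous genes were higher in 6 of 11 cases and lower in none. Selp, P-selectin, had a larger fold than any of these but was just under that limit in replicate 1, at 19.96 and 178 CPM in Plvap barcodes, against 2.05 and 7.50 CPM without (log2 4.38 ± 0.29). Few barcodes carried it: after thinning, 2.66% and 6.13% of all endothelial barcodes had a UMI (3.55% and 9.37% unthinned), against 0 of 2163 satellite glia barcodes in replicate 1, which allows up to 0.17% (exact 95% bound), and 0.359% in replicate 2 (0.943% unthinned). Capillary genes were higher in 6 of 9 cases, with Gpihbp1 at 312 and 445 CPM in Plvap barcodes and 88.2 and 119 CPM without.

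The genes lower in Plvap barcodes were led by Wfdc1 (3.93 and 1.03 CPM with Plvap, 34.9 and 31.5 CPM without), Dkk2, Alpl, Slco1c1, Nebl, St8sia6, Foxq1 and Atp2a3. Slco1c1 was at 7.53 and 6.19 CPM in Plvap barcodes and 74.9 and 57.0 CPM without (log2 -3.24 ± 0.26, adjusted p = 5.9e-07). Slc2a1 was at 241 and 201 CPM in Plvap barcodes, against 845 and 733 CPM without (log2 -1.84 ± 0.13, adjusted p = 2e-07). Barrier transporters were lower in 5 of 16 cases and higher in 1, Slc16a1. Arterial genes were lower in 10 of 16 cases. Ocln, the junction protein occludin, was at 5.56 and 0.688 CPM in Plvap barcodes and 18.5 and 14.2 CPM without (log2 -2.45 ± 0.50, adjusted p = 0.007).

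Not every barrier gene followed. Abcg2 was at 1109 and 1352 CPM in Plvap barcodes and 1149 and 1143 CPM without (adjusted p = 0.82). Mfsd2a was at 679 and 526 CPM in Plvap barcodes, against 951 and 628 CPM without (adjusted p = 0.12). Emcn was at 1104 and 1378 CPM in Plvap barcodes and 873 and 959.9 CPM without (log2 0.43 ± 0.11, adjusted p = 0.03), and Cldn5 was at 2153 and 1794 against 4443 and 2992 CPM, as a description. The 16 interferon genes had a median log2 fold change of -0.23 and the 17 immediate early and stress genes of 0.20, against 0.00 over all genes tested. Erythroid markers summed to 13856 and 1600 unscaled CPM in Plvap barcodes and 888 and 4126 CPM without, in opposite orders in the 2 libraries. The fibroblast markers summed to 104 and 289.7 CPM in Plvap barcodes and 455 and 383 CPM without, with Dcn at 6.94 and 159 against 329 and 218 unscaled CPM. The neutrophil markers summed to 163 and 37.2 CPM in Plvap barcodes and 272 and 573 CPM without, with S100a9 at 75.1 and 20.8 against 161 and 292 unscaled CPM. Both sums were lower in Plvap barcodes in both libraries, and their part in the differences was not tested. Adgrg6 and Aebp1 (higher with Plvap) and Wfdc1 and Alpl (lower with Plvap) were below the rest in all endothelial barcodes, as given above.

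**Figure D4:**
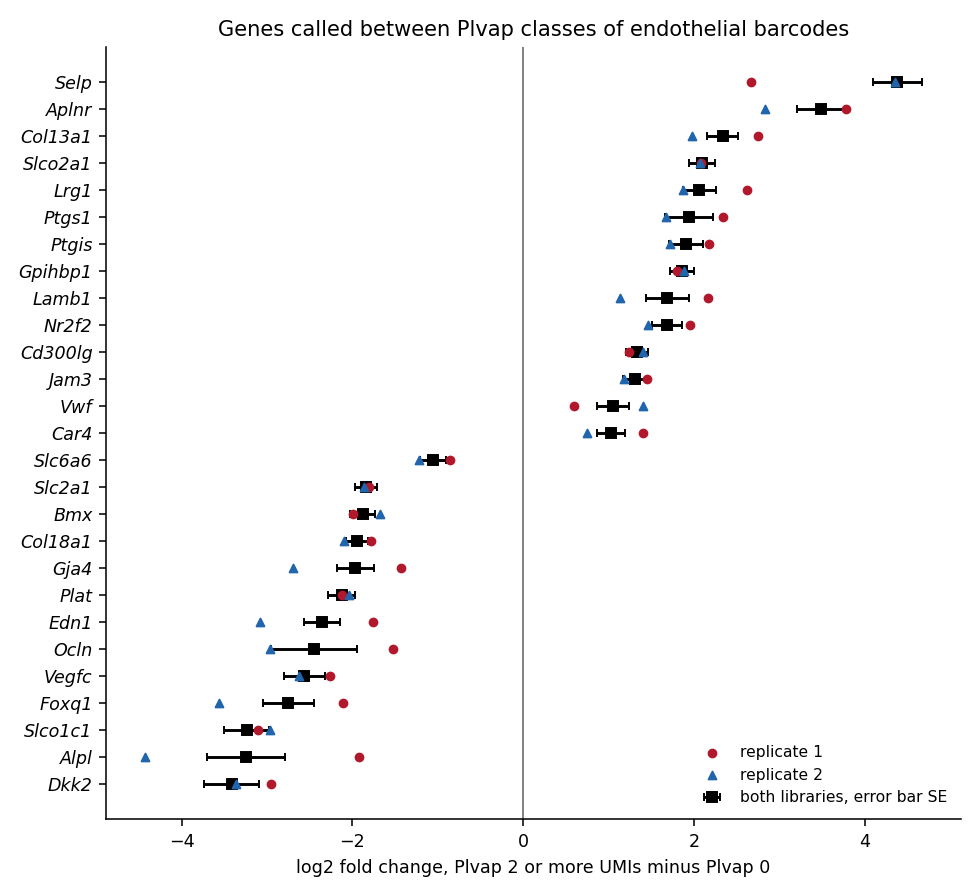
Log2 fold changes of 27 genes called between endothelial barcodes with 2 or more Plvap UMIs and those with 0. Squares with bars are the fitted values with their SE, circles and triangles are the 2 libraries, and positive values mean higher with Plvap. Each gene lies on one side of 0 in both libraries; Selp is the highest (4.38) and Dkk2 the lowest (-3.42).

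The libraries differed in a small set of genes within endothelial barcodes, and those that differed most are set beside the rest below. Of 3741 genes at 50 unscaled CPM or more in endothelial barcodes, 94.1% were within 2-fold between libraries, 174 were over 2-fold higher in replicate 2 and 46 in replicate 1. Both are replicates of a single group, so these are values with no test. Hspa1a and Hspa1b, inducible heat shock proteins, were at 2911 and 2192 CPM in replicate 1 and 81.3 and 54.4 CPM in replicate 2. Plaur, the urokinase receptor, was at 19.1 CPM in replicate 1 (95% counting interval 15.1 to 23.7) and 217 CPM in replicate 2 (204 to 230.0), while in the rest it was at 7.26 and 14.8 CPM. Emp1, Arid5a, Cxcl10 and Socs1 were also over 7-fold higher in replicate 2, with log2 ratios of replicate 2 over 1 of 3.41, 3.104, 3.05 and 2.88 in endothelial barcodes and 2.08, 2.27, 2.15 and 2.58 in the rest. Gm10076 and Lars2 had log2 ratios of -2.49 and -2.22 in endothelial barcodes and -2.72 and -2.61 in the rest. These 6 genes therefore differed between the libraries in both classes, and Hspa1a and Hspa1b did so too (log2 ratios of -5.14 and -5.31 in endothelial barcodes, -2.17 and -2.16 in the rest). Rgs5, a pericyte gene, was at 301 and 63.3 CPM in endothelial barcodes and 229 and 203 CPM in the rest, and 25 and 10 members also met the mural rule.

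**Figure D5:**
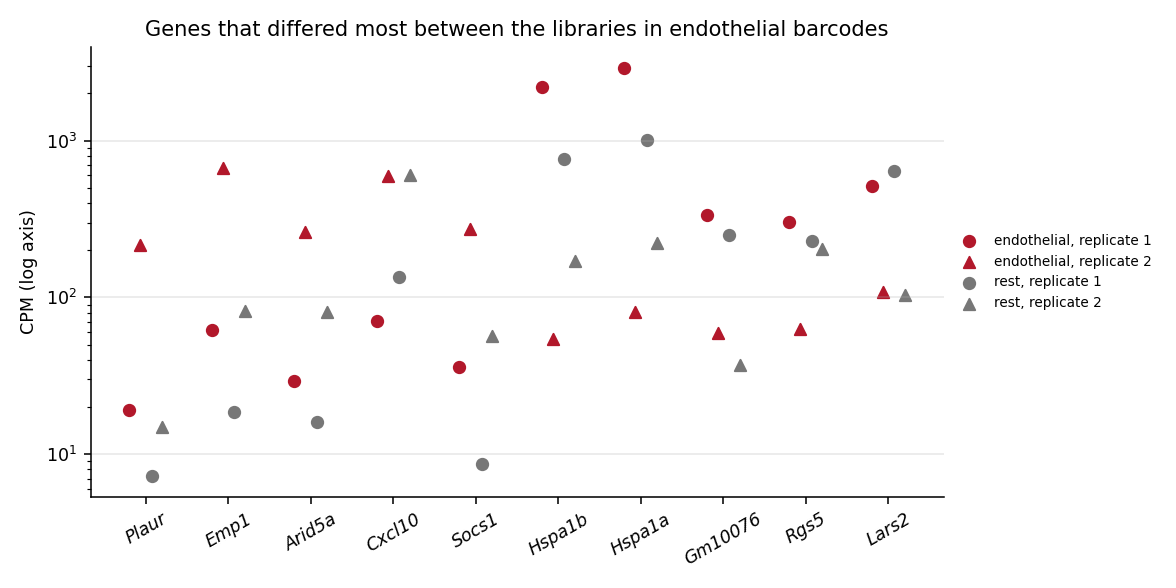
The 10 genes that differed most between the libraries in endothelial barcodes. The vertical axis is unscaled CPM on a log scale, red points are endothelial barcodes and grey points the rest, with circles for replicate 1 and triangles for replicate 2. Hspa1a and Hspa1b were higher in replicate 1 in both classes, and Plaur was at 217 CPM in endothelial barcodes of replicate 2.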

How the data were processed

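The authors deposited filtered matrices of UMI counts per gene and barcode for 2 libraries of 10x Genomics 3′ RNA-seq. Per the submitters' processing notes, CASAVA 1.8, Cell Ranger 5.0.1 and the mouse build mm10 were used. From these deposited counts, barcodes were put into classes by the limits given above, and UMIs were summed per class and library. Doublets were kept, and their removal by Scrublet scores (scanpy 1.11.5) was an alternative. Sums were compared with edgeR 4.0.16 (quasi-likelihood test, TMM scaling, filterByExpr, library as a block, Benjamini-Hochberg adjustment over all genes tested, threshold 0.05) in R 4.3.3. DESeq2 1.42.0 was an alternative. The block pairs class sums because both come from 1 library. The scripts were tested on simulated data. Gene positions are from GENCODE on GRCm38.

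Named genes were the 14 with the largest folds up and 8 down against the rest, the 8 each way in the other comparisons (at 20 CPM or more in both libraries, same sign in both, gate genes left out), up to 4 members of each list per direction, and list members at 20 CPM or more that did not pass. Members and lists were chosen with earlier results of these data known. Named outside that rule, after their values were seen, were Kdr, Tjp1, Mfsd2a, Slc2a1, Axin2, Erg, Fli1, Osmr, Lifr, Ramp2, Il31ra, H2-K1 and Fos against the rest, and Cdh5 against fibroblasts. Some genes that met the rule are not reported here.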

Additional observations from a re-analysis of the deposited data

How the results depend on the processing

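With 2 libraries, leaving one out leaves no residual degrees of freedom, so no test was run there. The mean endothelial share of 4.53% lay between 4.07% and 4.99% in the single libraries, and was 5.59% with at least 1000 genes and 5.62% with a neuron limit of 50 per 10000, an alternative chosen after seeing the data. Requiring a fold of at least 1.5 left 5123 of 8076 genes called against the rest, 2662 of 4341 against mural cells, 3385 of 5583 against fibroblasts, 155 of 714 between the arterial and venous gates and 106 of 385 between Plvap classes. With DESeq2 the last 2 comparisons called 183 and 104 genes. With no replicate block they called 19 and 0, with 656 and 449 at an unadjusted p under 0.05. With no filter on low counts the Plvap comparison called 588. For all 5 counts of called genes, the stricter gate, removal of Scrublet doublets, leaving out members in the mural or fibroblast gate and the 10% mitochondrial limit stayed within 1.5 times the count reported. No named gene that was called changed sign under any alternative run. Among 919 named values, 178 lost their call without the block and 75 with DESeq2.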
